A study of Mus musculus with 6 samples.

Results

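Haemogenic progenitor surface markers are the cell surface proteins by which blood-forming cells and their endothelial precursors are recognised and sorted. The 9 genes followed here were Kit, Cd34, Cd44, Procr, Cd93, Flt3, Ptprc, Spn and Cd48. They were chosen by name as such markers, with earlier results of these data known, out of 30702 genes with a single-gene feature on the array. Each of the 9 was named by exactly 1 feature, so no choice between features was needed. By RefSeq (GRCm38.p6) Cd34, Ptprc and Cd48 lie on chromosome 1, Cd44, Procr and Cd93 on chromosome 2, Kit and Flt3 on chromosome 5, and Spn on chromosome 7. The cells were mouse embryonic stem cells of a line labelled iRunx, grown as embryoid bodies to day 4, dissociated and sorted for Flk1, the receptor encoded by Kdr, and against PDGFRα. In the HOXB4 group (3 arrays) the sorted cells expressed HOXB4, a homeodomain protein, from a retrovirus marked with tdTomato. In the control group (3 arrays) cells of the same line, day and sort lacked that expression, and whether they carried an empty virus, which promoter drove HOXB4, and whether a Runx gene was induced in either group is not stated. The series text calls the replicates independent experiments, and the comparison addresses what HOXB4 alters in these precursors.

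Blood in the embryo arises from haemogenic endothelium, a specialised endothelium whose cells round up, switch on blood genes and leave the vessel wall. Kit, the receptor for stem cell factor, and the sialomucin Cd34 are carried by endothelial cells and early progenitors alike, and Procr, the endothelial protein C receptor, marks endothelium and blood stem cells. Ptprc (CD45), Spn (CD43), Cd48 and Flt3 belong to cells further along the path to leucocytes, so the set spans the transition from vessel to blood.

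All values are log2 RMA summaries, each of 1 feature in 1 array, and they are compared between arrays and not between genes. The 23 antigenomic features, which match no mouse sequence by design and serve as background, had medians between 3.06 and 3.15 and 95th percentiles between 5.05 and 5.68. For the median gene the range over arrays was 5.10 to 5.22. Kdr was at 14.33, 13.68 and 13.82 in HOXB4 arrays 1 to 3, against 13.72, 14.12 and 13.83 in controls 1 to 3. The feature listed for Pdgfra is listed for Mir7025 too, and it stood at 5.95, 7.15 and 6.04 in the HOXB4 arrays, against 6.67, 6.47 and 6.89 in controls. The feature listed for Hoxb4 is shared with Mir10a. It was at 4.93, 4.24 and 4.74 in the HOXB4 arrays, against 4.63, 4.96 and 4.40 in controls. These values overlap and lie below the 95th percentile of background in every array, so the feature does not check the labels. HOXB4 1, HOXB4 3 and control 2 had the 3 highest values of this feature and the 3 lowest of the Pdgfra feature. Cd34 was high in the same arrays (below), and the reason was not tested. With all arrays limma called no gene, and without HOXB4 2 it called 46, of which 43 were lower in HOXB4 cells and none was a marker. Precision is limited by the 3 arrays in each group. In sorted bulk cells, fewer cells of a type and less RNA per cell cannot be told apart.

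Of the 9 markers, 4 stood above background in every array, namely Kit, Cd34, Cd44 and Procr. The other 5, Cd93, Flt3, Ptprc, Spn and Cd48, lay below the 95th percentile of the background features in all 6 arrays. None of the 9 passed limma's moderated test between HOXB4 and control cells at a Benjamini-Hochberg adjusted p of 0.05, and their adjusted p-values ran from 0.691 to 0.991. Over the whole array the number of genes that passed was 0 of 30702 (0.0%), with 2513 (8.19%) at an unadjusted p below 0.05, a level that 0 of the 9 markers reached. An ordinary linear model, run on the same values without limma's moderation, called 0 genes as well and had 1974 at an unadjusted p below 0.05. The 3 HOXB4 values overlapped the 3 control values for every marker, where 13.5% of all genes had no overlap. Differences were above 0 for 6 markers and below 0 for 3, with a median of 0.04, beside a median of -0.04 over all genes, of which 40.0% lay above 0. The median of the markers was -0.010 without HOXB4 1 and 0.13 without HOXB4 3. What Cd34, Kit and Procr showed instead was a wide spread between arrays of the same group, widest for Cd34.

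**Figure D1:**
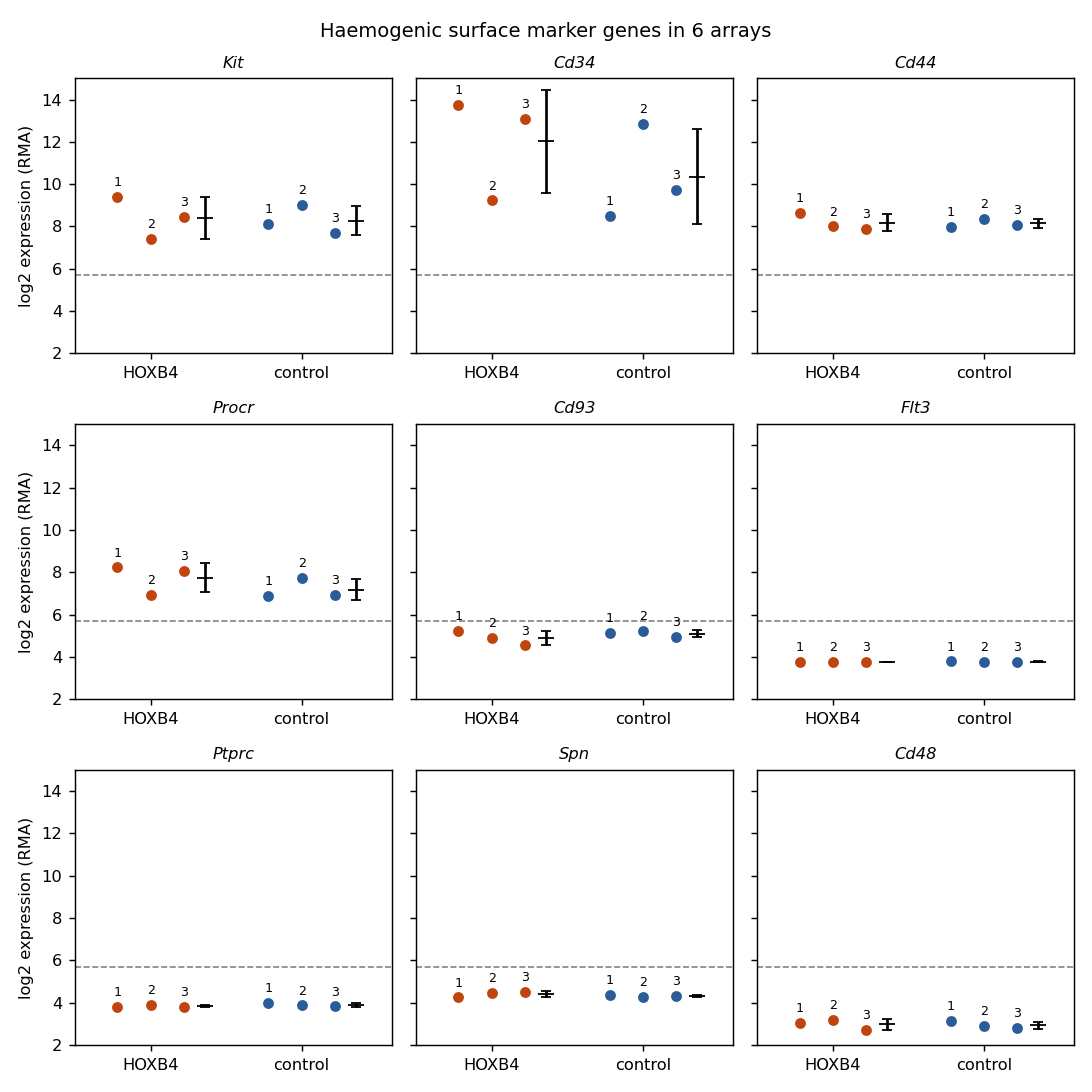
Log2 expression of the 9 marker genes by array, with HOXB4 arrays on the left of each panel and controls on the right, numbered by replicate, and the group mean ± SD (n = 3) beside them in black. The dashed line is the highest 95th percentile of the background features, 5.68. Cd34 runs from 8.50 to 13.75 within the 6 arrays, while Flt3, Ptprc, Spn and Cd48 reach no more than 4.52.

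Cd34 encodes a sialomucin of endothelial and progenitor surfaces. It stood at 13.75, 9.23 and 13.07 in HOXB4 arrays 1 to 3, against 8.50, 12.84 and 9.73 in controls 1 to 3. HOXB4 1, HOXB4 3 and control 2 were high, and HOXB4 2, control 1 and control 3 were low, with no array between 9.73 and 12.84. The highest and lowest arrays were 5.26 log2 units apart, a 38.2-fold span, and the spans within the HOXB4 group (4.52) and within the control group (4.35) were nearly as wide. The group means were 12.02 ± 2.44 in HOXB4 cells and 10.36 ± 2.24 in controls (SD, n = 3 each). The difference of 1.66 (SE 1.47, limma adjusted p = 0.754) had a 95% confidence interval from -1.84 to 5.17, or from 0.279-fold to 35.9-fold. Cd34 was therefore higher on average in HOXB4 cells by less than the spread between replicates, and the data leave its response between a decrease and a large increase. The difference was 3.05 without HOXB4 2 (adjusted p = 0.333), 2.91 without control 2, 0.80 without HOXB4 1 and 0.73 without control 1.

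Procr encodes the receptor that presents protein C to the thrombin and thrombomodulin complex on endothelium, and it is a sorting marker of blood stem cells. Its values were 8.23, 6.94 and 8.07 in HOXB4 arrays 1 to 3, against 6.89, 7.74 and 6.92 in controls 1 to 3. The same 3 arrays were high as for Cd34, and the same 3 were low. Procr averaged 7.74 ± 0.70 in HOXB4 cells and 7.18 ± 0.49 in controls (SD, n = 3 each). Its difference of 0.56 (SE 0.39, limma adjusted p = 0.691, 95% confidence interval -0.36 to 1.48) had the smallest p of the 9 markers. Without HOXB4 2 it was 0.96 (adjusted p = 0.225), and without HOXB4 1 it was 0.32. Both HOXB4 arrays left by the first of these omissions lie above all 3 controls, and so do they for Cd34.

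Kit encodes the tyrosine kinase receptor on which early progenitors and mast cells depend. It stood at 9.40, 7.39 and 8.43 in HOXB4 arrays 1 to 3, against 8.10, 9.02 and 7.70 in controls 1 to 3. HOXB4 1 was the highest array and HOXB4 2 the lowest, so the HOXB4 group alone spanned the whole range of 2.01 log2 units, a 4.02-fold span. The arrays that were high for Cd34 were also the 3 highest for Kit, but they came in another order, with control 2 above HOXB4 3. Kit averaged 8.41 ± 1.00 in HOXB4 cells and 8.27 ± 0.67 in controls (SD, n = 3 each), a difference of 0.14 (SE 0.54, limma adjusted p = 0.952, 95% confidence interval -1.16 to 1.43). Its sign depended on single arrays, with -0.36 without HOXB4 1, -0.15 without control 3 and 0.64 without HOXB4 2.

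Cd44, a receptor for hyaluronan on mesenchymal, endothelial and blood cells, followed another order. It was at 8.63, 8.00 and 7.90 in HOXB4 arrays 1 to 3, against 7.98, 8.38 and 8.07 in controls 1 to 3. HOXB4 1 and control 2 were again the highest, but HOXB4 3, high for Cd34 and Procr, was the lowest. The means were 8.18 ± 0.40 in HOXB4 cells and 8.14 ± 0.21 in controls (SD, n = 3 each). The difference of 0.04 (SE 0.21, limma adjusted p = 0.965) had a 95% confidence interval from -0.47 to 0.54, the narrowest of the 4 markers above background. It ran from -0.19 without HOXB4 1 to 0.18 without HOXB4 3, and was -0.05 with array weights.

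**Figure D2:**
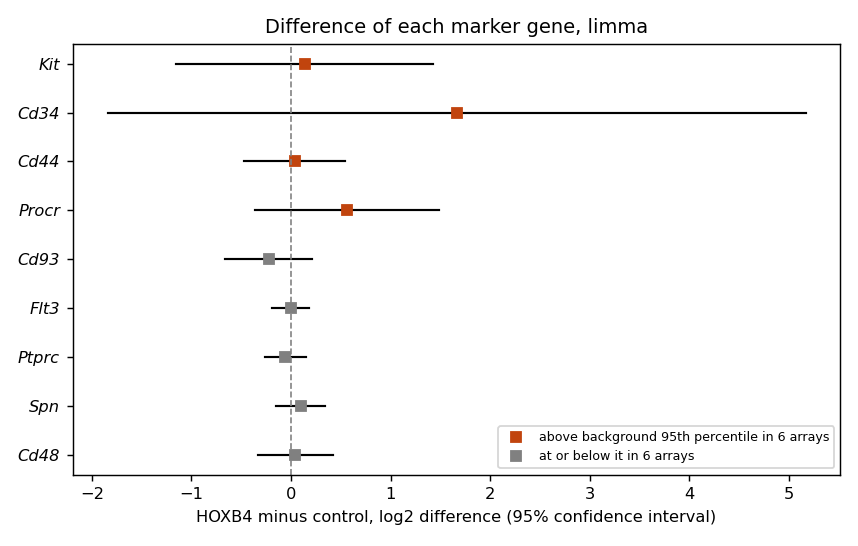
HOXB4 minus control log2 difference of each marker gene (squares) with limma's 95% confidence interval (lines). Orange squares are the 4 genes above the 95th percentile of background in all 6 arrays and grey squares the 5 at or below it. Every interval includes 0, and that of Cd34, from -1.84 to 5.17, is the widest.

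The promoters of Cd34, Kit and Procr are shown because these are the 3 markers whose arrays were high and low together. They are the 250 bases before the start given in a RefSeq promoter table on GRCm38.p6, all on the plus strand. They lie at chr1:194938571-194938820 for Cd34, chr5:75574737-75574986 for Kit and chr2:155750967-155751216 for Procr. The Procr window runs into the annotated gene, which begins at 155751125, while those of Cd34 and Kit end just before it. Capitals mark matches to any of 5 motifs searched on both strands, and in these 3 windows only CAGGAA, an ETS core, matched.
Cd34: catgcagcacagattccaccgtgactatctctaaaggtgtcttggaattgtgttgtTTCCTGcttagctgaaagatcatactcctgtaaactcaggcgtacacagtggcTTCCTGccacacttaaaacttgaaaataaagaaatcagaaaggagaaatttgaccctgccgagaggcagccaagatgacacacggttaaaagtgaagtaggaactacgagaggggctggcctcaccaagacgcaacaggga
Kit: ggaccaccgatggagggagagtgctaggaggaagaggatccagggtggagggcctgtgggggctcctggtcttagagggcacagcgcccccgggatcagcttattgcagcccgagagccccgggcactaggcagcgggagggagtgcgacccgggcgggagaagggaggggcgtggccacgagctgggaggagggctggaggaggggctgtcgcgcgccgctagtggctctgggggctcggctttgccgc
Procr: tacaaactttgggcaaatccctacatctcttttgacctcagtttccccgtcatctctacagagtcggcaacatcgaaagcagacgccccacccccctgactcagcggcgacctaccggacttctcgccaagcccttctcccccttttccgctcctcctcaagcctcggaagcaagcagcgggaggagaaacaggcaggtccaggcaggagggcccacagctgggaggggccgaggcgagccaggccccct
The Cd34 window held 2 matches to the ETS core, from -194 to -189 and from -141 to -136 relative to the start, both on the minus strand and so printed as TTCCTG. The Kit and Procr windows held none of the 5 motifs. The motifs were TGTGGT for RUNX factors, AGATAA for GATA factors, CAGGAA for ETS factors, CAGATG as an E-box and TAATTA for homeodomain proteins. The last reads the same on both strands, and no match in the Cd34 window overlapped another. Among 32851 promoter windows of the same length, 14.0% held TGTGGT, 9.99% AGATAA, 25.7% CAGGAA, 14.4% CAGATG and 4.84% TAATTA. Windows were listed for 8 of the 9 markers, and the ETS core matched in 4 of them, in Cd34, Cd44, Ptprc and Cd48. The windows of Ptprc, Spn and Cd48 lie inside the annotated genes. Of these, Cd34 alone is among the 3 markers high and low together, Cd44 followed another order, and Ptprc and Cd48 lie below background. The Kit window was 70.8% G and C and the Procr window 61.6%, against 46.4% in Cd34 and a median of 52.4% over all windows. A match is a match of letters and not evidence of binding, and a window without one says only that these letters are not in it.

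The markers of more advanced blood cells lay at background level. Ptprc, the phosphatase CD45 that marks leucocytes, was at 3.80, 3.88 and 3.81 in HOXB4 arrays 1 to 3, against 3.98, 3.87 and 3.82 in controls 1 to 3. Flt3, the receptor tyrosine kinase of lymphoid and myeloid progenitors, was between 3.75 and 3.78 in all 6 arrays, and 3 arrays carried the same deposited value. No array stood out for Ptprc or Flt3. Spn, the leucocyte sialoglycoprotein CD43 and an early sign of blood commitment in embryoid bodies, was at 4.24, 4.45 and 4.52 in HOXB4 arrays, against 4.36, 4.26 and 4.31 in controls. Cd48, a SLAM family ligand, was at 3.05, 3.20 and 2.70 in HOXB4 arrays, against 3.12, 2.90 and 2.79 in controls. For these 4 genes the groups overlapped, and the arrays high for Cd34 did not stand apart from the others.

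Cd93, a lectin-like receptor of endothelium and fetal blood stem cells, was likewise below the 95th percentile of background in every array. It was at 5.22, 4.88 and 4.54 in HOXB4 arrays 1 to 3, against 5.14, 5.24 and 4.93 in controls 1 to 3. The lowest array was HOXB4 3, one of those high for Cd34, and the groups overlapped. Its difference of -0.22 (SE 0.18, limma adjusted p = 0.733) was the farthest from 0 of the 5 dim markers. Since all 5 lie below the 95th percentile of background in both groups, their differences are not read as changes in expression, and no fold is given.

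**Figure D3:**
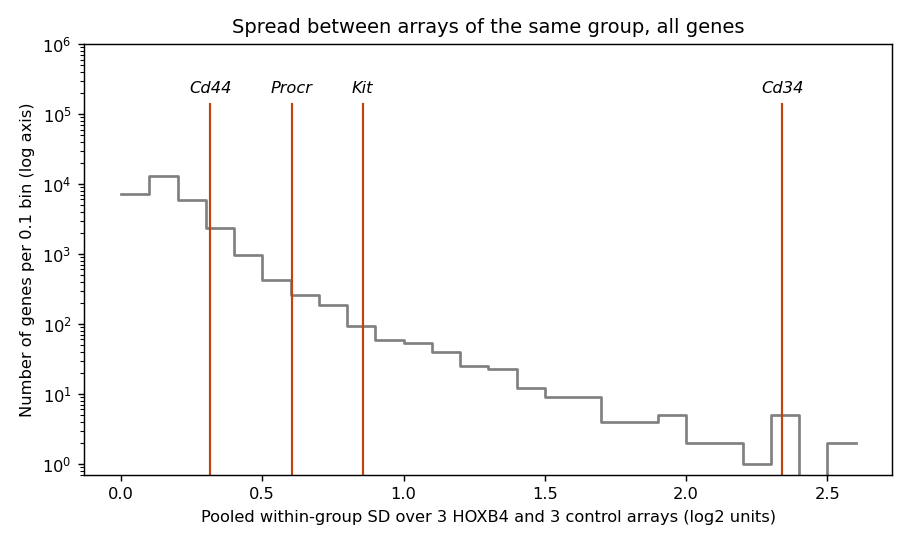
Number of genes (log axis) by pooled within-group SD of log2 expression over 3 HOXB4 and 3 control arrays, in bins of 0.1, for 30702 genes. Orange lines mark the 4 markers above background, with Cd34 at 2.34 in the sparse upper tail and Cd44 at 0.32 in the body of the distribution.

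Set against all genes, the spread of 3 of these markers between replicates was unusual in size. The pooled within-group SD of Cd34, 2.34, ranked 7 among 30702 genes, whose median was 0.15 and 99th percentile 0.84. Kit, at 0.86, ranked 293, so 0.951% of genes had a larger one. Procr, at 0.60, was exceeded by 2.57% of genes and Cd44, at 0.32, by 13.0%. Ptprc and Flt3 lay at the other end, at 0.07 and 0.01. The genes ranked include many near background, since the median gene (5.10 to 5.22) lay near the 95th percentile of background (5.05 to 5.68). Ranks among brighter genes alone were not computed. These ranks describe the 6 arrays and were not tested.

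The genes whose values most resembled each of the 3 most variable markers were found among 1271 genes with an SD of at least 0.5 and a mean above that of the median gene. Likeness was Pearson's r over the 6 arrays, given with no p because the arrays fall into high and low sets of 3 for Cd34 and any gene that follows this split scores high. For Cd34 the nearest were Vps36, an ESCRT sorting subunit, Pcyox1, a prenylcysteine oxidase, Nox4, an NADPH oxidase, and Myct1, an endothelial gene, with r from 0.998 to 0.994. Myct1 was at 10.07, 6.74 and 9.11 in HOXB4 arrays 1 to 3, against 6.23, 9.46 and 7.06 in controls. For Kit they were Acvrl1, an endothelial receptor of the TGF-beta family, Cdh5, which encodes VE-cadherin, Antxr2 and Tgfbr3, a TGF-beta coreceptor, with r from 0.998 to 0.992. Cdh5 was at 15.11, 11.29 and 12.91 in HOXB4 arrays, against 12.31, 14.05 and 11.83 in controls, in the array order of Kit. For Procr they were Ube2l6, Ncam1, an adhesion molecule, Arid5b and Nexmif, with r from 0.9996 to 0.9987. An r above 0.95 was reached by 204 of the 1271 genes for Cd34, 53 for Kit and 284 for Procr, so each of these patterns was shared by many genes.

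The mean of the endothelial markers varied between arrays with Cd34, Kit and Procr. Of 15 listed endothelial markers 14 were measured, 12 of them above the 95th percentile of background in all arrays. Their mean was 10.00, 7.76 and 8.96 in HOXB4 arrays 1 to 3, against 8.09, 9.20 and 7.96 in controls 1 to 3. HOXB4 1, control 2 and HOXB4 3 were the highest, as they were for Kit and in the same order. Pecam1, which encodes CD31, was at 11.75, 7.75 and 10.71 in HOXB4 arrays, against 8.10, 10.63 and 7.96 in controls, and its difference was 1.17 (SE 1.14, limma adjusted p = 0.778). Flt1, Esam and Ramp2 differed by 1.04, 0.76 and 0.75 (SE 0.70, 0.74 and 0.75). None of the 14 passed in either direction, and the list median of 0.48 was -0.09 without HOXB4 1 and 1.16 without HOXB4 2. Embryonic globin ran the other way. Hbb-bh1, the primitive erythroid beta-like globin, was at 10.02, 13.57 and 9.84 in HOXB4 arrays, against 12.63, 10.74 and 13.52 in controls, low in each array that was high for Cd34. Of the 8 measured erythroid markers, 4 were above background in all arrays, 1 lay above 0, 7 below, and 0 passed. The part of these cell types in the spread of Cd34, Kit and Procr was not tested.

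**Figure D4:**
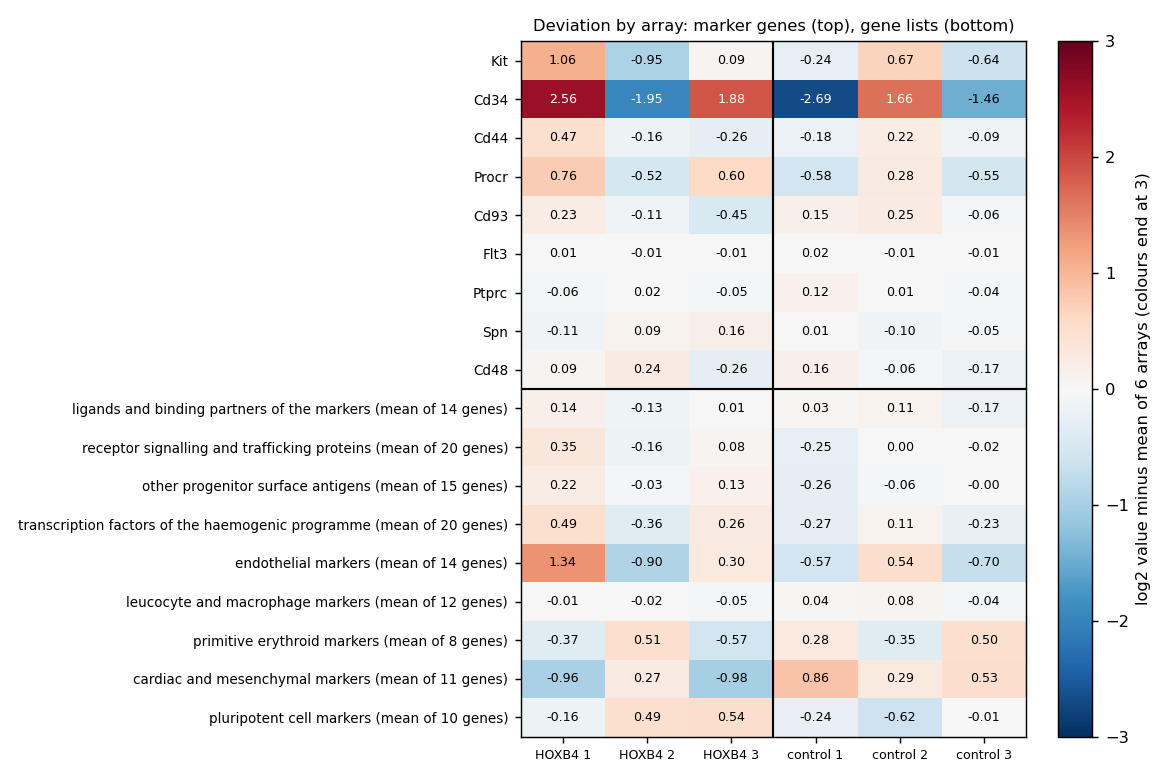
Deviation of each array from the mean of the 6 arrays (log2 units, printed in each cell) for the 9 marker genes above the line and for the means of 9 gene lists below it, with HOXB4 arrays on the left and controls on the right. The 9 markers are left out of the list means. Cd34, Kit, Procr and the endothelial mean are above 0 in HOXB4 1, HOXB4 3 and control 2, where the erythroid mean is below 0.

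Leucocyte and macrophage markers gave little signal. Of 13 measured, Laptm5 alone was above the 95th percentile of background in all arrays, and the list mean lay between 4.33 and 4.36 in HOXB4 arrays, against 4.34 to 4.45 in controls. Csf1r, Itgam and Adgre1, defining macrophage genes picked out here after their values were seen, did not exceed 3.87 in any array. Fcgr3, an Fc receptor of macrophages and other leucocytes, was at 5.30, 5.88 and 5.44 in HOXB4 arrays, against 5.46, 6.22 and 5.91 in controls, above the 95th percentile of background in 3 arrays. The 10 pluripotency genes had a median difference of 0.54, with 9 above 0, 0 called and 7 above background in all arrays, and the median was 0.89 without HOXB4 1. Among them Zfp42 was at 8.49, 8.39 and 9.21 in HOXB4 arrays, against 7.86, 8.24 and 7.93 in controls. The 11 cardiac and mesenchymal genes had a median difference of -0.73, with 10 below 0, 0 called and 7 above background in all arrays. At an unadjusted limma p below 0.05, 6 of the 11 were lower, where 8.19% of all genes reached it in either direction. In 3 of them, Tbx20, Hand2 and Twist1, every HOXB4 array lay below every control, where 13.5% of all genes had no overlap in either direction. Of these, Hand2 was above the 95th percentile of background in 5 arrays only, and Twist1 in 3. The list was chosen with earlier results of these data known. Tbx20, among those without overlap, was at 8.91, 10.67 and 9.10 in HOXB4 arrays, against 11.93, 11.23 and 11.19 in controls. HOXB4 2 was nearest to the controls. The part of these cells in the marker values was not tested.

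None of the measured ligands and partners of the markers passed the test either, with 7 of 14 above 0, 7 below and a median of 0.00 that was -0.08 without control 3. Kitl, the ligand of Kit, was at 7.74, 8.01 and 7.28 in HOXB4 arrays 1 to 3, against 8.23, 8.45 and 7.88 in controls 1 to 3. Only HOXB4 2 reached into the control range, and the difference was -0.51 (SE 0.22, limma adjusted p = 0.605). F2r, the thrombin receptor PAR1 through which protein C bound to Procr can signal, was at 17.16, 15.58 and 17.16 in HOXB4 arrays, against 15.42, 16.07 and 15.46 in controls. It was high in HOXB4 1 and 3, with a difference of 0.98 (SE 0.44, limma adjusted p = 0.609). Flt3l, the ligand of Flt3, differed by 0.30 (SE 0.15, limma adjusted p = 0.630), and Cd2, a binding partner of Cd48, by -0.16. Cd2 lay below the 95th percentile of background in every array. Among 20 signalling and trafficking genes 14 lay above 0 and 6 below, with 0 called. They included the adaptor Crkl at -0.28 (SE 0.10), the ubiquitin ligase Cbl at 0.36 (SE 0.17), Stat3 at 0.55 (SE 0.29) and the kinase Fyn at 0.77 (SE 0.47).

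Among other surface antigens of progenitors, Prom1 and Cd9 had no overlap between the groups. Prom1, which encodes CD133, was at 7.95, 7.97 and 8.32 in HOXB4 arrays 1 to 3, against 7.18, 7.66 and 7.46 in controls 1 to 3. Its difference of 0.64 (SE 0.16, limma adjusted p = 0.605) did not pass over all genes. The tetraspanin gene Cd9 was at 9.54, 9.40 and 9.87 in HOXB4 arrays, against 8.82, 8.82 and 9.29 in controls, a difference of 0.63 (SE 0.18, limma adjusted p = 0.605). In both genes every HOXB4 array lay above every control, as for 3.24% of all genes, and HOXB4 2 did not fall among the controls as it did for Cd34. Itga6 differed by 0.63 (SE 0.30) and Itga2b, the integrin CD41 that marks the onset of blood formation, by 0.50 (SE 0.34), both with overlap. Of the 15 measured genes of this list 10 lay above 0, 5 below and 0 passed, with a median of 0.06 that was 0.16 without control 3.

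Transcription factors of the haemogenic programme also had 0 of 20 called, with 15 above 0 and a median of 0.31 that was 0.03 without HOXB4 1 and 0.57 without HOXB4 2. Myb, a factor of definitive blood progenitors, was at 8.98, 7.29 and 8.96 in HOXB4 arrays 1 to 3, against 7.27, 8.16 and 7.35 in controls 1 to 3. It was high in the same 3 arrays as Cd34 and differed by 0.82 (SE 0.49, limma adjusted p = 0.660). Etv2, with the smallest p of the list, was at 9.58, 12.06 and 10.16 in HOXB4 arrays, against 12.31, 11.75 and 12.33 in controls. Its lowest arrays were HOXB4 1 and HOXB4 3, while control 2, high for Cd34, stood near the other controls. Etv2 differed by -1.53 (SE 0.60, limma adjusted p = 0.605). Fli1 and Spi1 were the other factors with the smallest p, at 1.15 and 0.27 (SE 0.72 and 0.15). Spi1 was above the 95th percentile of background in 1 array only, so its difference is not read as a change in expression.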

How the data were processed

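The samples were 6 arrays of sorted day 4 cells, 3 with HOXB4 and 3 controls, grouped by their titles. Per the labels' protocols, 100 ng of RNA per sample was biotinylated with a WT PLUS kit. The authors deposited log2 expression values, 1 per feature. Expression Console and RMA are named as tools per the submitters' processing notes. RMA corrects background, equalises the arrays by quantiles and summarises probes, so a shift shared by most genes would be partly removed. Neither version nor setting is given in the sources used here.

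Of 65956 features that were not controls, 31258 named 1 gene after symbols were updated through RefSeq (GRCm38.p6), 1492 named several and 33206 had no listed gene. The brightest feature by mean over the 6 arrays stood for each of 30702 genes. HOXB4 minus control was fitted over all genes by the lmFit and eBayes functions of limma 3.58.1 (R 4.3.3), two-sided, with Benjamini-Hochberg adjustment and no replicate block, and SE is the moderated standard error. An exact permutation test of 3 against 3 arrays cannot go below p = 0.1. Tables were made in Python 3.11.15 (pandas 2.3.3, numpy 2.4.6) and plots in matplotlib 3.10.9.

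The fit was tested on simulated data for HOXB4 against control, drawn for 30702 genes from their means and moderated SDs. In it 79 of 100 genes changed by 1 log2 unit were called, 99 of 100 changed by 2, and 10 of 30502 unchanged ones, with noise independent between genes. The changed genes were picked at random from all genes, so these shares do not hold for a gene as variable as Cd34, whose SE was 1.47. The members and lists were chosen with earlier results of these data known. All 9 members were named, then up to 4 genes of each of 9 other lists with the smallest p and 4 genes most like each of the 3 most variable members. Of 138 list entries 125 were measured. Alternatives were a replicate block, 2 other scalings, a filter keeping 18107 genes whose mean reached 4.63, another feature rule, all features tested, array weights, another prior, no moderation, and each array left out in turn.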

Additional observations from a re-analysis of the deposited data

How the results depend on the processing

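No marker was called under any alternative, and the counts of genes called over the whole table were 0 in all of them except without HOXB4 replicate 2, where limma called 46 genes, none of them a marker. Leaving out 1 array at a time moved the Kit difference between -0.36 and 0.64, that of Cd34 between 0.73 and 3.05, of Cd44 between -0.19 and 0.18, and of Procr between 0.32 and 0.96. For the dim markers the ranges were -0.39 to -0.05 for Cd93, -0.010 to 0.0056 for Flt3, -0.09 to -0.01 for Ptprc, 0.04 to 0.18 for Spn and -0.065 to 0.19 for Cd48. The sign also turned with array weights for Cd44 (-0.048) and Cd48 (-0.0095), and for Flt3 with arrays centred on their medians (0.0087) and with cyclic loess (0.034); the cause was not tested. Without HOXB4 2, Procr had an unadjusted limma p of 0.012 and Cd34 of 0.040, and without HOXB4 1 Cd93 had 0.047, while their adjusted p-values stayed above 0.05. The filter on dim features left out Flt3, Ptprc, Spn and Cd48, which have no value under it. The replicate block left the differences as they were (Cd34 1.66, adjusted p = 0.933; Procr 0.56, adjusted p = 0.923; Kit 0.14, adjusted p = 0.982), changed no call, and gave 1294 genes at an unadjusted p below 0.05, against 2513 without it. Same-numbered arrays deviated from their group means in opposite directions (r of -0.40, -0.59 and -0.35 over genes for numbers 1 to 3), and no array correlated best with its own number, so the numbers were not taken as pairs. Signal over background limits Cd93, Flt3, Ptprc, Spn and Cd48. Replicate spread limits Cd34, whose 95% confidence interval with 3 arrays a group ran from -1.84 to 5.17. Even its difference of 3.05 without HOXB4 2 was not called.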

Other observations

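The genes with a within-group spread as wide as that of Cd34 were looked up after their values were seen. The 6 that ranked above it were Gm9788, Cyp1b1, Dppa2, Cxcl1, Slc1a2 and Tdgf1-ps1, and Pf4 and Cped1 came directly after it. Pf4, platelet factor 4, which megakaryocytes and early blood progenitors express, was at 9.21, 4.62 and 8.52 in HOXB4 arrays 1 to 3, against 5.05, 8.45 and 4.61 in controls 1 to 3. It lay below the 95th percentile of background in the 3 arrays where Cd34 was low. Cyp1b1, a cytochrome P450 of mesenchymal and vascular cells, was at 11.01, 5.86 and 10.08 in HOXB4 arrays, against 5.96, 9.87 and 6.02 in controls. The chemokine gene Cxcl1 was at 10.42, 5.16 and 10.23 in HOXB4 arrays, against 4.96, 7.61 and 4.70 in controls, so control 2 lay between the others. Dppa2, a gene of pluripotent and germ cells, was at 12.74, 8.82 and 13.35 in HOXB4 arrays, against 9.13, 12.71 and 8.32 in controls. The pseudogene Tdgf1-ps1 ran the other way, at 8.24, 13.29 and 10.13 in HOXB4 arrays, against 10.87, 7.66 and 11.68 in controls.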
